A study of Sus scrofa with 15 samples.

Results

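Solute carriers (SLC) are membrane proteins that move amino acids, sugars, organic acids, metal ions, vitamins and mitochondrial metabolites across membranes, each by exchange, by facilitated diffusion or with the help of an ion gradient. A mammary epithelial cell takes up the precursors of milk protein, lactose and fat from blood by carriers on its basal side, and other carriers load the Golgi, where lactose is made and casein is packed with calcium and zinc. Mitochondrial carriers of the SLC25 family pass citrate, nucleotides, folate and amino acids between mitochondrion and cytosol, and citrate is the classical source of cytosolic acetyl units for fatty acids and sterols.

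The members described here were the 30 genes whose Ensembl identifier was paired with a symbol beginning with SLC in the part of the study's gene list used here, which held 1998 entries. All 30 reached at least 1 CPM (read count scaled to the same library size) in at least 3 of the 15 libraries, out of 13503 genes that did so among 25322 genes counted. The symbols of 27 of the 30 were also held, with the same name, by a separate gene name table. That table named 265 further SLC genes, of which 149 passed the filter and served as a comparison. By the family number in their symbols, the 30 members fell into 9 groups: amino acids and peptides (5 genes), sugars and monocarboxylates (4), nucleotide sugars and the Golgi (2), zinc (3), mitochondrial carriers (5), choline (2), organic ions and polyamines (5), vitamins and nucleosides (3) and sodium-proton exchange (1). A member need not carry what its group is named for.

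Messenger RNA was sequenced from mammary biopsies of 3 second-parity crossbred sows (Danish Landrace x Yorkshire) at 14, 10, 6 and 2 d prepartum and at 1 d postpartum, 3 libraries at each of the 5 time points and 1 per sow. The 3 sows were picked by the study for their high colostrum yield, and each ate a different diet (alfalfa meal with trioctanoate, sugar beet pulp with palm fatty acid distillate, or alfalfa meal with soybean oil), so sow and diet cannot be told apart. By the paper's account, the diets were allotted at a later day of gestation than the biopsies at 14 d prepartum. Their start therefore cannot be told apart from time in comparisons of later days with 14 d prepartum. Each biopsy came after all earlier ones in the same sow and was followed by Banamine, so these too run with time. No untreated or non-pregnant group was used, and the libraries at 14 d prepartum served as the base of 4 comparisons, written as the later day against day -14 (-2vs-14, for example), which therefore share those 3 libraries. The comparisons -2vs-6 and +1vs-2 set neighbouring stages side by side. In bulk tissue, fewer cells of a type and less RNA per cell cannot be told apart.

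Total counts per library ran from 10782343 to 19952918, with a median of 17726719, and the 3 postpartum libraries had 10782343 to 15744454. The postpartum library of sow 1 stood apart: its 10 highest genes held 53.8% of its counts, against 16.6% to 35.7% in the other 14 libraries, and its normalisation factor (TMM) was 0.545. Among the cell markers, the summed level of 8 fibroblast genes went from 3680-6865 CPM at 14 d prepartum to 1896-3655 CPM at 1 d postpartum. COL3A1 made up most of that sum, and in +1vs-14 4 of the 8 were called lower (COL3A1, COL6A2, COL6A3 and LUM) and 1, PI16, higher, from 14.1-36.1 to 47.9-81.7 CPM. The sum of 3 skeletal muscle genes went from 3.14-3.35 to 11.6-28.1 CPM, with ACTA1 and MYH1 called higher and TMOD4 not called (-0.20 ± 0.36). Of 6 epithelial markers, 1 was called higher and 2 lower in +1vs-14, and their summed level was 1053-1190 CPM at 14 d prepartum, 700-797 CPM at 2 d prepartum and 590-1187 CPM at 1 d postpartum, lowest again in sow 1. Of 12 leukocyte markers 2 were called lower, of 7 endothelial markers 1 was called higher and 1 lower, and of 4 adipocyte markers 1 was called higher. The part of cell composition in the SLC results was not tested.

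The number of SLC genes whose level differed grew towards and past parturition. To be called, a gene needed an adjusted p of 0.05 or less both over all 5 time points together and in the comparison itself (edgeR quasi-likelihood test with sow as a block, Benjamini-Hochberg adjustment over the 13503 genes). No SLC gene was called in -10vs-14, where 0% of all genes were called, and DESeq2 and limma-voom also called 0 of the 30. An unadjusted p under 0.05 was found for 0 of the 30, against 523 of all 13503 genes. The groups of 3 libraries did not overlap in 5 of the 30 genes, or in 9.51% of all genes. In -6vs-14 again no SLC gene was called, against 0.467% of all genes. One member, SLC50A1, had an unadjusted p under 0.05 there, against 1761 of all 13503 genes, and DESeq2 and limma-voom called 0 of the 30. The libraries did not overlap in 4 of the 30 genes, against 18.9% of all genes.

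In -2vs-14, 2 SLC genes were upregulated and 0 downregulated, or 6.67% of the 30, against 8.68% of all tested genes (5.07% upregulated and 3.61% downregulated). In +1vs-14, 7 were upregulated and 1 downregulated, or 26.7%, against 30.1% of all genes (16.3% upregulated and 13.8% downregulated). The share of SLC genes called was thus near that of the whole transcriptome in both. The balance of directions depended on the scaling. By library totals alone, without TMM, 5 SLC genes were upregulated and 8 downregulated in +1vs-14, while the median of all genes moved to -0.65 and 629 genes were upregulated and 6223 downregulated. The 8 were SLC44A4 and 7 genes not called with TMM (SLC18B1, SLC19A2, SLC25A25, SLC25A43, SLC25A44, SLC35C2 and SLC38A3). In -2vs-14 the counts without TMM were 2 and 5, against 266 and 3059 of all genes. Genes whose libraries did not overlap numbered 9 in -2vs-14 (4 above and 5 below, against 29.3% of all genes) and 12 in +1vs-14 (10 above and 2 below, against 39.0%). The median log2 fold change of the 30 was 0.00 in -2vs-14 and 0.34 in +1vs-14, beside medians of -0.01 and 0.01 over all genes. Taken sow by sow, the postpartum median of the 30 genes was 0.25, 0.35 and 0.48 in sows 1, 2 and 3, and 17, 20 and 21 of the 30 were above their level at 14 d prepartum.

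**Figure D1:**
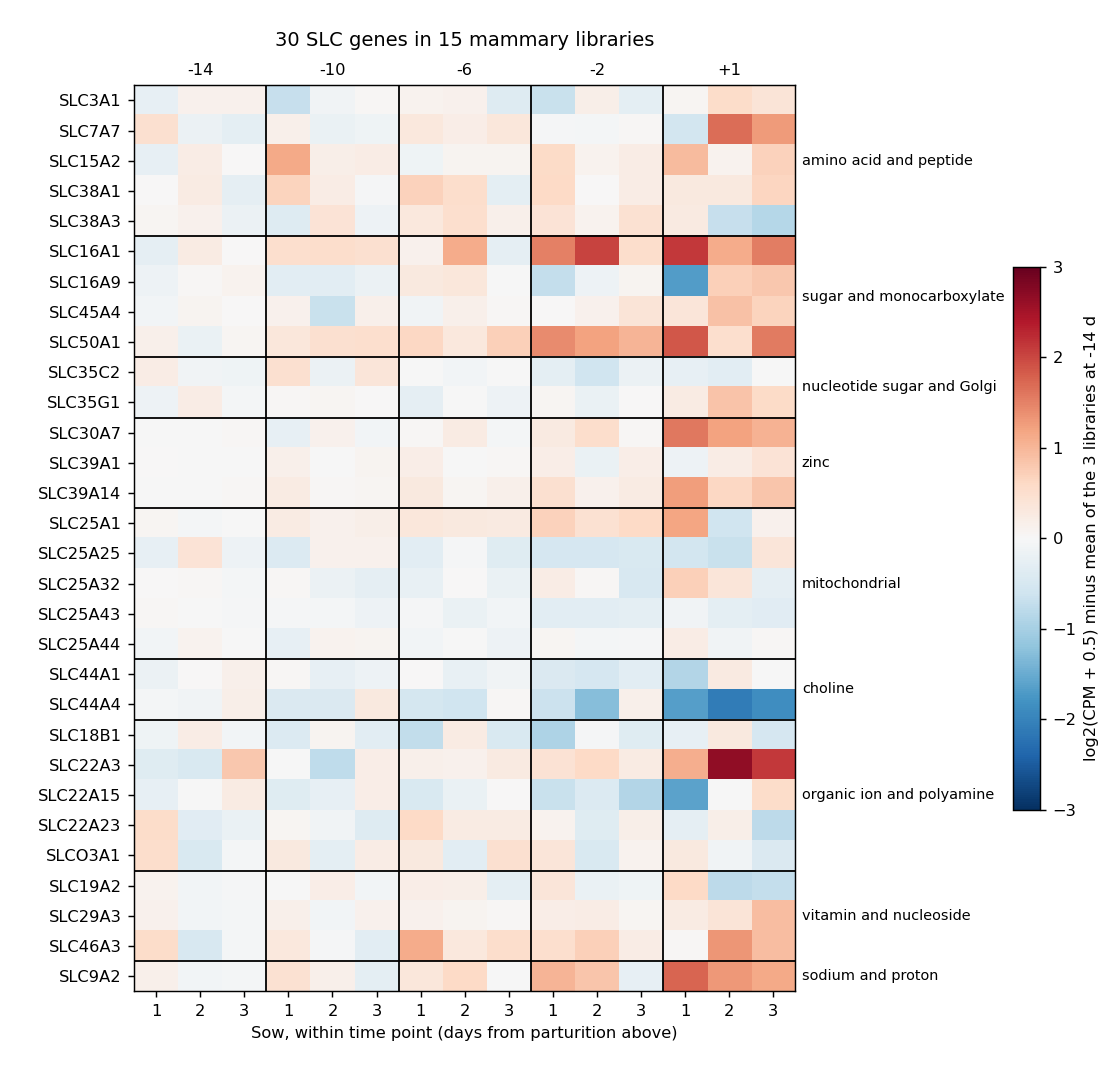
Level of each of the 30 SLC genes (rows, by group) in each of the 15 libraries (columns, 3 sows within each of 5 time points), as log2(CPM + 0.5) minus the mean of the gene's 3 libraries at 14 d prepartum; red is higher and blue lower. SLC50A1 and SLC16A1 turn red from 2 d prepartum, while SLC30A7, SLC39A14 and SLC22A3 (red) and SLC44A4 (blue) change mostly at 1 d postpartum.

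The sugar and monocarboxylate group held both genes that rose before parturition. SLC50A1 (ENSSSCG00000006529, minus strand of chromosome 4, 103445705-103448581 in the Sscrofa10.2 build of the files) encodes SWEET1, the mammalian member of a family of sugar uniporters, which is found at the Golgi. In sows 1, 2 and 3 its level was 33.0, 25.9 and 31.3 CPM at 14 d prepartum, 37.9, 42.1 and 42.7 at 10 d, 46.0, 37.2 and 49.0 at 6 d, 80.4, 69.4 and 61.3 at 2 d prepartum, and 111, 42.4 and 88.4 at 1 d postpartum. Every library after 14 d prepartum was above all 3 libraries of that day, and those of 2 d prepartum were above all earlier ones. The log2 fold change was 1.24 ± 0.22 (SE) in -2vs-14 (edgeR adjusted p = 0.00686) and 1.38 ± 0.22 in +1vs-14 (edgeR adjusted p = 0.000553).

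The level of SLC50A1 then differed between sows. At 1 d postpartum it was above its level of 2 d prepartum in sows 1 and 3 and below it in sow 2, and the difference of 0.14 ± 0.22 was not called (edgeR adjusted p = 0.698). The earlier steps, 0.46 ± 0.22 in -10vs-14 and 0.55 ± 0.22 in -6vs-14, were not called either, although all 3 sows were higher in each. Without the postpartum library of sow 1 the postpartum difference was 1.11 and was still called.

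SLC16A1 (ENSSSCG00000006769, chromosome 4, 117603634-117614944, plus strand) encodes MCT1, which carries lactate, pyruvate and ketone bodies together with protons. Its level in sows 1, 2 and 3 was 17.6, 25.4 and 21.5 CPM at 14 d prepartum, 30.4, 31.1 and 29.97 at 10 d, 23.4, 46.9 and 17.6 at 6 d, 61.6, 88.9 and 30.7 at 2 d prepartum, and 93.6, 46.7 and 62.4 at 1 d postpartum. The 3 libraries of 2 d prepartum and the 3 postpartum ones were above all libraries of 14 d. Sow 2 was the highest of the 3 at each prepartum time point and the lowest at 1 d postpartum. The difference was 1.41 ± 0.35 in -2vs-14 (edgeR adjusted p = 0.0283) and 1.67 ± 0.35 in +1vs-14 (edgeR adjusted p = 0.00291). The prepartum call was the less stable: it was lost without sow as a block (edgeR adjusted p = 0.0598) and when the library of sow 1 or sow 2 was left out at 14 d or at 2 d prepartum.

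Of the other members of the group, SLC45A4, described as a proton-coupled sugar carrier, stood at 7.15-8.09 CPM at 14 d prepartum and at 9.87-14.4 CPM at 1 d postpartum, with no overlap. Its log2 difference of 0.69 ± 0.22 had an edgeR adjusted p of 0.0249 in +1vs-14, but its overall test of time had 0.0660, so it was not called by edgeR, while DESeq2 and limma-voom called it. SLC16A9, a monocarboxylate family member linked to carnitine and creatine transport, was at 2.89, 3.40 and 3.59 CPM at 14 d prepartum and at 0.681, 5.65 and 6.14 CPM at 1 d postpartum, below all earlier libraries in sow 1 and above them in sows 2 and 3. Its log2 difference was 0.35 ± 0.39 with that library and 0.76 without it, and it was called in the latter fit.

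**Figure D2:**
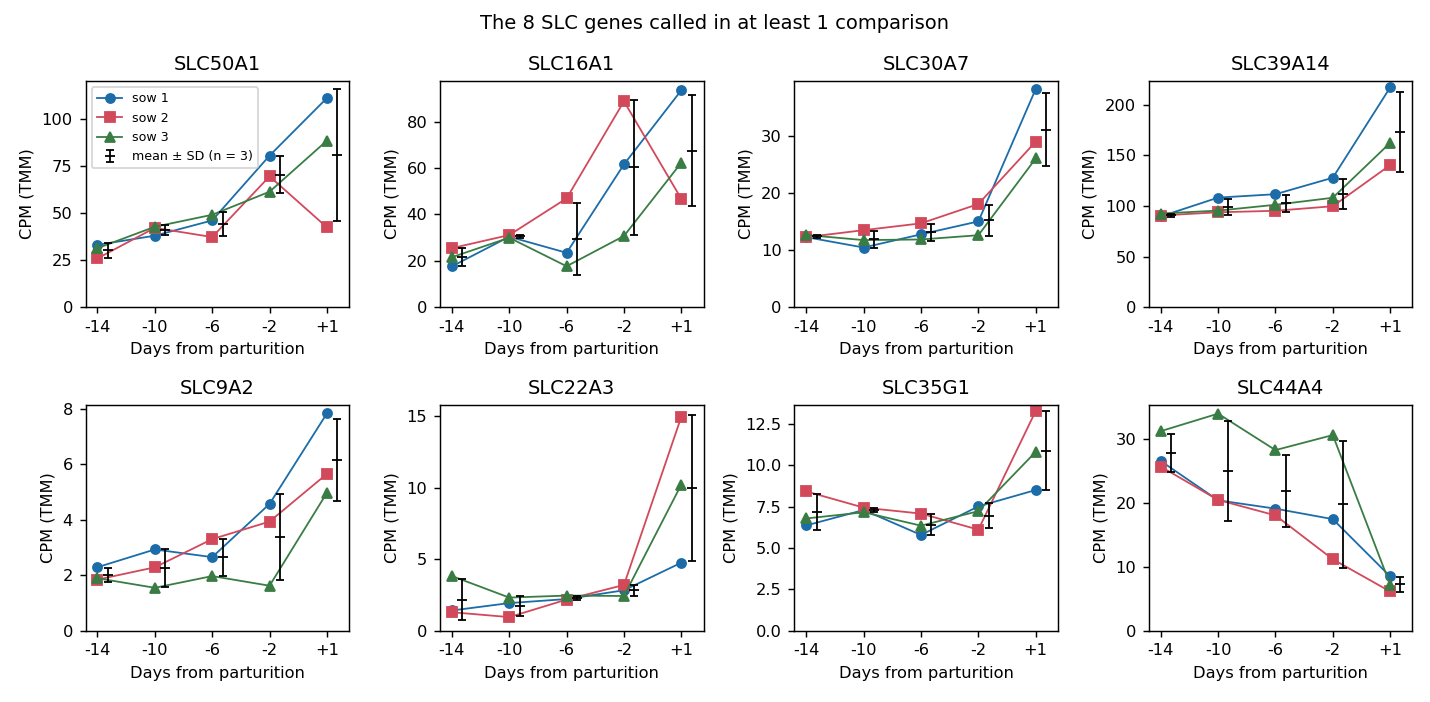
CPM (scaled by TMM) of the 8 SLC genes called in at least 1 comparison, by days from parturition, with a line for each of the 3 sows and the mean ± SD (n = 3) beside the points. All 3 sows end above their start for every gene but SLC44A4, which ends below it in all 3, and sow 2 goes down from 2 d prepartum to 1 d postpartum for SLC50A1 and SLC16A1.

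Among the zinc carriers, 2 of 3 rose after parturition. SLC30A7 (ENSSSCG00000006860, chromosome 4, 128863165-128939924, minus strand) encodes ZnT7, which moves zinc from the cytosol into the Golgi. It stayed between 10.46 and 14.7 CPM in the 9 libraries of 14 to 6 d prepartum, stood at 15.0, 18.1 and 12.6 CPM at 2 d prepartum and at 38.3, 29.1 and 26.1 CPM in sows 1, 2 and 3 at 1 d postpartum. The postpartum libraries lay above all 12 prepartum ones. The difference was 1.31 ± 0.15 in +1vs-14 (edgeR adjusted p = 6.09e-05) and 1.03 ± 0.15 in +1vs-2 (edgeR adjusted p = 0.000794).

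SLC39A14 (ENSSSCG00000009623, chromosome 14, 7073529-7120390, plus strand) encodes ZIP14, a plasma membrane importer of zinc, iron and manganese. It was at 89.6, 90.6 and 92.6 CPM at 14 d prepartum, 108, 93.8 and 95.4 at 10 d, 112, 95.3 and 101 at 6 d, 128, 99.8 and 108 at 2 d prepartum and 217, 140 and 162 at 1 d postpartum. In each sow every library was above that of the time point before, with the widest step across parturition, and sow 1 was highest at each time point after 14 d. The log2 difference was 0.91 ± 0.11 in +1vs-14 (edgeR adjusted p = 6.55e-05) and 0.62 ± 0.11 in +1vs-2 (edgeR adjusted p = 0.00173), while that of 0.29 ± 0.11 in -2vs-14 was not called. When counts were scaled by library totals alone, without TMM, SLC39A14 was called in neither, with log2 differences of 0.22 and 0.33. SLC39A1 (ZIP1), another zinc importer, stayed at 69.9 to 107 CPM throughout, with a log2 difference of 0.17 ± 0.14 in +1vs-14.

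Zinc carriers outside the 30 were mostly upregulated where they were called. Of 11 genes of the SLC30 and SLC39 families outside the 30, 6 were upregulated and 1 downregulated in +1vs-14, against 16.3% and 13.8% of all genes, with a median of 0.88. They included SLC39A8 (ZIP8), which went from 63.3-78.1 to 256-331 CPM (2.00 ± 0.15), SLC39A7 (1.39 ± 0.14), which releases zinc from the endoplasmic reticulum, and SLC30A2 (ZnT2), known for zinc secretion into milk, which went from 13.5-27.4 CPM to 214, 30.7 and 42.3 CPM in sows 1, 2 and 3. SLC39A6 was lower (-0.48 ± 0.15).

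Of the choline group, SLC44A4 was the member with the clearest fall. SLC44A4 (ENSSSCG00000001419, chromosome 7, 27834565-27853383, plus strand) encodes a choline transporter-like protein that also takes up thiamine pyrophosphate. In sows 1, 2 and 3 it was at 26.6, 25.7 and 31.2 CPM at 14 d prepartum, 20.4, 20.5 and 33.99 at 10 d, 19.1, 18.1 and 28.3 at 6 d, 17.5, 11.2 and 30.6 at 2 d prepartum and 8.51, 6.15 and 7.24 at 1 d postpartum. Sow 3 held its level up to 2 d prepartum while sows 1 and 2 were already lower, and after parturition all 3 lay below every prepartum library. The difference was -1.97 ± 0.22 in +1vs-14 (edgeR adjusted p = 4.61e-05) and -1.39 ± 0.22 in +1vs-2 (edgeR adjusted p = 0.00117). That of -0.58 ± 0.20 in -2vs-14 was not called by edgeR or limma-voom, while DESeq2 called SLC44A4 lower there. It was also called lower there by edgeR without TMM, without sow 3 at 2 d prepartum and without sow 1 postpartum.

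SLC44A1, the ubiquitous choline transporter CTL1, was at 49.9-62.3 CPM at 14 d prepartum and at 39.2-45.03 CPM, below all of them, at 2 d prepartum. After parturition it was at 30.1 CPM in sow 1 and at 67.5 and 56.0 CPM in sows 2 and 3. Neither its prepartum difference of -0.43 ± 0.21 nor its postpartum one of -0.14 ± 0.21 was called, and the former was called in the fit without the postpartum library of sow 1.

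Sodium-proton exchange was represented by SLC9A2 (ENSSSCG00000008153, chromosome 3, 53962452-54047092, minus strand), which encodes NHE2, an epithelial exchanger. It was at 2.29, 1.84 and 1.89 CPM at 14 d prepartum, 2.93, 2.29 and 1.55 at 10 d, 2.65, 3.30 and 1.97 at 6 d, 4.57, 3.93 and 1.62 at 2 d prepartum and 7.83, 5.65 and 4.97 CPM at 1 d postpartum. Sows 1 and 2 were above their level of 14 d by 2 d prepartum and sow 3 was not, and all postpartum libraries were above all prepartum ones. The difference was 1.60 ± 0.25 in +1vs-14 (edgeR adjusted p = 0.000398). In +1vs-2 it was 0.90 ± 0.24 (edgeR adjusted p = 0.0189), which was not called without sow as a block (edgeR adjusted p = 0.118).

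Among the organic ion and polyamine carriers 1 of 5 changed. SLC22A3 (ENSSSCG00000004039, chromosome 1, 8788104-8885504, minus strand) encodes OCT3, a carrier of organic cations and monoamines. It was at 1.42, 1.30 and 3.83 CPM at 14 d prepartum, 1.94, 0.957 and 2.32 at 10 d, 2.22, 2.18 and 2.46 at 6 d, 2.84, 3.21 and 2.44 at 2 d prepartum and 4.77, 15.0 and 10.235 CPM in sows 1, 2 and 3 at 1 d postpartum. The postpartum libraries were above all others, by least in sow 1. The log2 difference of 2.26 ± 0.43 in +1vs-14 (edgeR adjusted p = 0.00146) was the highest of the 30, and that in +1vs-2 was 1.79 ± 0.42 (edgeR adjusted p = 0.00984).

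With all 15 libraries, the other 4 of that group were not called in any comparison by edgeR with TMM, DESeq2 or limma-voom. SLC22A23, an orphan carrier, was at 44.2-116 CPM over the 15 libraries, and SLCO3A1, which carries prostaglandins and thyroid hormone, at 10.9-21.997 CPM, with sow 2 lowest at each prepartum time point. SLC18B1, a vesicular polyamine transporter, was at 10.22-13.1 CPM at 14 d and at 5.67-10.96 CPM at 2 d prepartum (-0.46 ± 0.16 with an edgeR adjusted p of 0.0966). SLC22A15, a carrier of ergothioneine and other zwitterions, was at 1.99-2.97 CPM at 2 d prepartum and 3.39-4.997 CPM at 14 d, a log2 difference of -0.71 ± 0.32 that was not called, and stood at 1.02, 4.07 and 6.21 CPM in sows 1, 2 and 3 postpartum. Without the postpartum library of sow 1 it was called lower in -2vs-14 (-0.72) and higher in +1vs-2 (0.91), and its difference in +1vs-14 went from -0.13 to 0.19.

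Of the pair of SLC35 genes, SLC35G1 (ENSSSCG00000027230, chromosome 14, 115066294-115076782, plus strand) was called. Its place in the nucleotide sugar group rests on its family number alone, and what SLC35G1 carries was not tested. It was at 6.37, 8.43 and 6.79 CPM at 14 d prepartum, 7.30, 7.45 and 7.17 at 10 d, 5.79, 7.09 and 6.36 at 6 d, 7.52, 6.11 and 7.23 at 2 d prepartum and 8.51, 13.3 and 10.8 CPM at 1 d postpartum. The lowest postpartum value, in sow 1, was just above the highest prepartum value of sow 2. The log2 difference was 0.60 ± 0.16 in +1vs-14 (edgeR adjusted p = 0.0105) and 0.64 ± 0.16 in +1vs-2 (edgeR adjusted p = 0.0145), but the former was -0.04 when counts were scaled by library totals alone, and both were lost without the postpartum library of sow 2 or of sow 3. SLC35C2, linked to GDP-fucose handling in the Golgi, was at 4.60-6.27 CPM at 2 d prepartum, below the 6.60-8.57 CPM of 14 d, with a difference of -0.40 ± 0.16 that was not called.

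Of 14 further SLC35 genes tested, 7 were upregulated and 1 downregulated in +1vs-14, against 16.3% and 13.8% of all genes, with a median of 0.31. SLC35A2, the carrier of UDP-galactose into the Golgi, where galactose is joined to glucose to give lactose, rose from 17.1-23.1 CPM at 14 d to 31.1-46.7 CPM at 2 d prepartum and 33.0-60.9 CPM postpartum (1.04 ± 0.18 in -2vs-14 and 1.08 ± 0.18 in +1vs-14). SLC35B3, a carrier of the sulphate donor PAPS, was 0.97 ± 0.12 higher in +1vs-14.

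**Figure D3:**
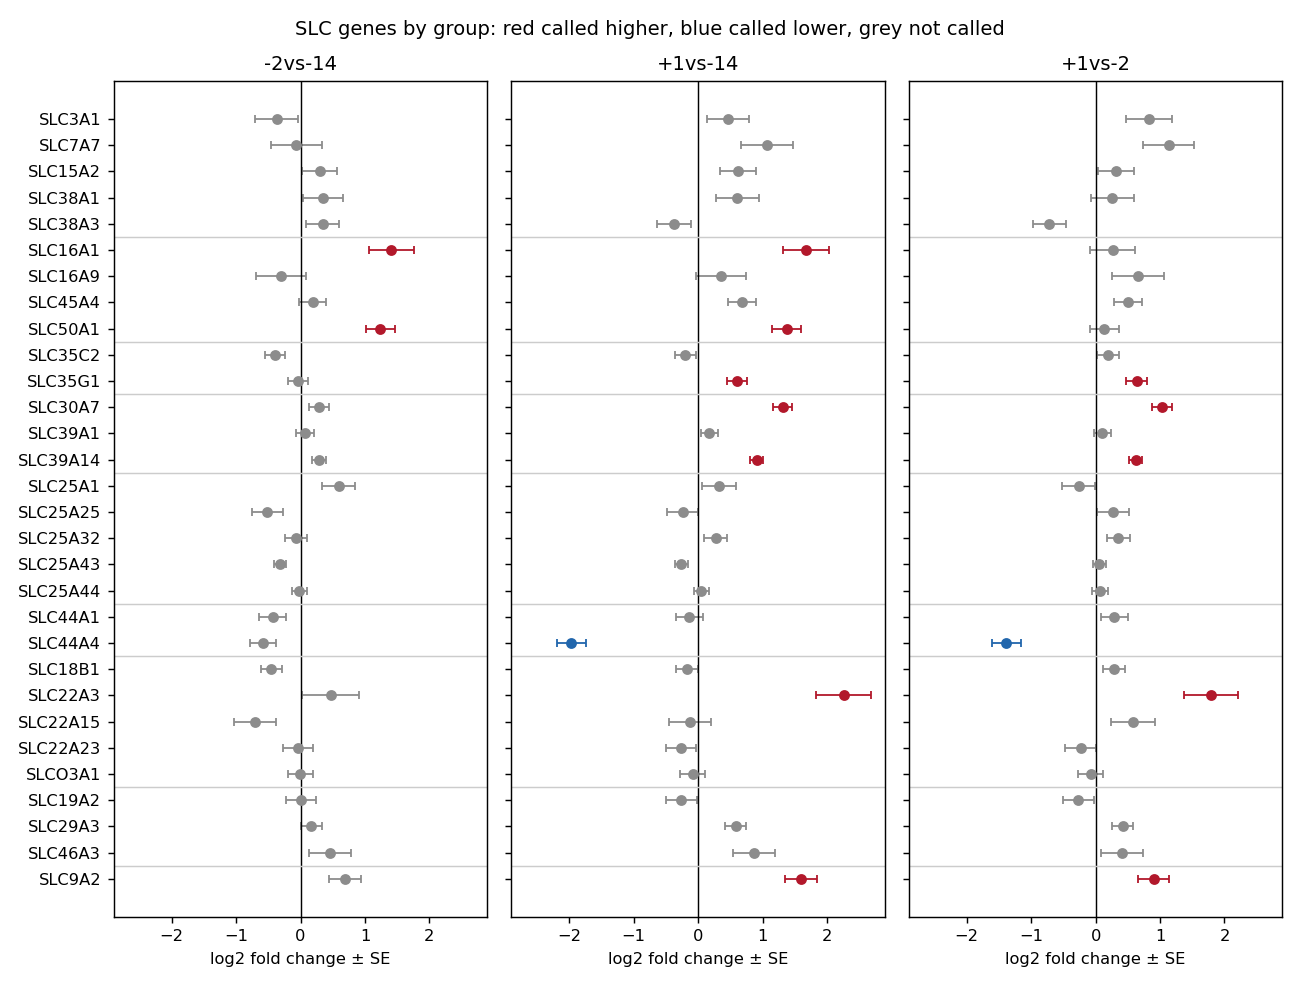
Log2 fold change ± SE (edgeR, sow as a block) of the 30 SLC genes, by group, in -2vs-14, +1vs-14 and +1vs-2; red points were called higher, blue called lower and grey not called. In -2vs-14 only SLC16A1 and SLC50A1 are coloured, and in +1vs-2 these are grey while 5 other genes are red and SLC44A4 is blue.

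With all 15 libraries, none of the 5 amino acid and peptide carriers was called in any comparison by edgeR with TMM, DESeq2 or limma-voom. An unadjusted p under 0.05 was found for 2 of them in +1vs-14 and 3 in +1vs-2, against 6471 and 4877 of all 13503 genes. SLC38A3 (SNAT3), a sodium-coupled carrier of glutamine, histidine and asparagine, was at 207-257 CPM at 14 d prepartum, 252-325 CPM at 2 d prepartum and 282, 145 and 129 CPM in sows 1, 2 and 3 at 1 d postpartum. Sows 2 and 3 were then below all 12 prepartum libraries and sow 1 was not. The log2 difference in +1vs-14 was -0.38 ± 0.26 and not called, and it was -0.83 and called without the library of sow 1.

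SLC7A7, the light chain of the y+LAT1 exchanger of cationic and neutral amino acids, stayed at 9.90-17.3 CPM in the 12 prepartum libraries and was at 8.17, 40.5 and 30.3 CPM in sows 1, 2 and 3 postpartum. Its difference of 1.07 ± 0.40 in +1vs-14 just missed the threshold (edgeR adjusted p = 0.0507), and was 1.58 and called without the library of sow 1. SLC15A2 (PEPT2), a carrier of di- and tripeptides, was at 3.90-5.53 CPM at 14 d and 5.06-9.53 CPM postpartum (0.62 ± 0.28). SLC38A1 (SNAT1) at 1.08-2.65 CPM and SLC3A1, the heavy chain of the cystine and dibasic amino acid exchanger, at 0.496-1.88 CPM were near the detection filter in all libraries.

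Several amino acid carriers outside the 30 were called. Of 20 further genes of the SLC1, SLC3, SLC6, SLC7, SLC36, SLC38 and SLC43 families, 7 were upregulated and 2 downregulated in +1vs-14, where 30.1% of all genes were called. In -2vs-14 the counts were 3 and 2, against 8.68% of all genes. SLC6A14, a broad carrier of neutral and cationic amino acids, went from 28.8, 23.7 and 13.4 CPM at 14 d to 371, 753 and 64.1 CPM at 2 d prepartum and 1660, 531 and 517 CPM postpartum. Its log2 difference was 3.74 ± 0.62 in -2vs-14 (edgeR adjusted p = 0.00527) and 5.42 ± 0.67 in +1vs-14 (edgeR adjusted p = 8.84e-05). SLC7A8 (LAT2) rose by 2 d prepartum (1.74 ± 0.30), and SLC1A5 (ASCT2), a glutamine exchanger, was 1.04 ± 0.27 higher in +1vs-14 but not called in -2vs-14 (-0.42 ± 0.27). The 2 downregulated genes, SLC6A3 and SLC6A4, carry the monoamines dopamine and serotonin rather than amino acids, and SLC6A3 had a log2 difference of -5.09 ± 0.41 in +1vs-14.

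With all 15 libraries, the 5 mitochondrial carriers were not called in any comparison by edgeR with TMM, DESeq2 or limma-voom either. An unadjusted p under 0.05 was found for 2 in -2vs-14 and 1 in +1vs-14, against 3609 and 6471 of all 13503 genes. SLC25A1, the citrate carrier, showed a prepartum course with little spread and a postpartum split. It was at 52.7-57.1 CPM at 14 d, 60.0-64.9 at 10 d, 65.4-69.4 at 6 d and 75.2-88.9 CPM at 2 d prepartum, with no overlap between any of these time points, and at 124, 35.6 and 59.2 CPM in sows 1, 2 and 3 postpartum. The prepartum difference was 0.59 ± 0.26 in -2vs-14 (edgeR adjusted p = 0.166) where the 15 libraries shared their estimate of spread. It was called when the postpartum library of sow 1 (0.59 without it), or that of sow 2, was left out.

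SLC25A43, whose substrate is not established, changed little but evenly, from 14.9-15.7 CPM at 14 d to 12.2-12.5 CPM at 2 d prepartum and 11.9-14.1 CPM postpartum, so that all libraries of these later days were below those of 14 d. Its differences of -0.32 ± 0.10 and -0.26 ± 0.10 had edgeR adjusted p of 0.0579 and 0.0550. Without the postpartum library of sow 1 they were -0.33 and -0.32, and both were called. SLC25A25, an ATP-magnesium/phosphate carrier, was at 12.8-13.4 CPM at 2 d prepartum, below the 15.4-24.5 CPM of 14 d (-0.52 ± 0.24, not called). SLC25A44, which carries branched-chain amino acids into mitochondria, stayed at 39.2-54.5 CPM over all 15 libraries and was within 0.08 of its level at 14 d in each comparison with that day, with SEs of 0.12. SLC25A32, a folate and FAD carrier, stayed at 7.75-18.2 CPM.

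Few other mitochondrial carriers were called. Of 22 further SLC25 genes, 1 was upregulated (SLC25A38) and 2 downregulated (SLC25A3 and SLC25A12) in +1vs-14, or 3 of 22 against the 30.1% of all genes. SLC25A3, the phosphate carrier, fell from 664-704 CPM to 474-502 CPM (-0.49 ± 0.09).

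Of the 3 vitamin and nucleoside carriers edgeR called 0, and DESeq2 and limma-voom called 1, SLC29A3. An unadjusted p under 0.05 was found for 2 of the 3 in +1vs-14, against 6471 of all 13503 genes. SLC29A3 (ENT3), a lysosomal nucleoside carrier, was at 10.1-11.7 CPM at 14 d prepartum and 12.8, 14.2 and 20.8 CPM postpartum, with no overlap, and its difference of 0.59 ± 0.16 had an edgeR adjusted p of 0.0133 in +1vs-14, but its overall test had 0.0628. SLC46A3, a lysosomal membrane carrier, was at 57.9, 28.04 and 38.3 CPM at 14 d and at 40.9, 101 and 75.7 CPM postpartum, down in sow 1 and up in sows 2 and 3 (0.87 ± 0.33, edgeR adjusted p = 0.0525). SLC19A2, a thiamine carrier, split the other way, from 46.2, 40.7 and 42.3 CPM to 64.9, 24.6 and 25.8 CPM (-0.26 ± 0.24). Without the postpartum library of sow 1 these differences were 0.73, 1.28 and -0.71, and all 3 were called.

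In the 30 genes, the 3 sows lay further apart after parturition than before it. The ratio of the highest to the lowest of the 3 libraries had a median over the 30 genes of 1.25 to 1.38 at the 4 prepartum time points and 1.82 at 1 d postpartum, where it exceeded 2 in 13 genes, against 3 or 4 genes at the other time points. The ratio was not taken over all tested genes, so whether the wider spread is particular to SLC genes was not tested. Sow 1 was the highest of the 3 postpartum libraries for 14 genes and the lowest for 12, and in 6 genes it lay more than 2-fold from the nearer of the others. Without that library, 12 SLC genes were called upregulated and 4 downregulated in +1vs-14, against 2605 and 2443 of all 13469 genes tested then. In -2vs-14 the SLC counts became 4 and 4, against 1453 and 1203 of all genes. In +1vs-2 they became 11 and 4, against 2038 and 2062. More genes were thus called over the whole transcriptome too. The 8 postpartum calls of the full fit were all kept. The library also differed in its share of counts in the highest genes, and the part of that in these values was not tested.

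RNA integrity, as the study's quality summary lists it, also rose over the time points. With it as a covariate, 0 SLC genes were called in -2vs-14, and 0 of all 13503 genes. In +1vs-14, 1 SLC gene was called (SLC30A7, upregulated), against 146 upregulated and 164 downregulated of all genes. In +1vs-2, 3 were upregulated (SLC22A3, SLC30A7 and SLC39A14) and 1 downregulated (SLC44A4), against 750 and 723 of all genes. Time and RNA integrity can thus be told apart only in part.

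Set against 2 d prepartum, 5 SLC genes were upregulated (SLC30A7, SLC39A14, SLC22A3, SLC35G1 and SLC9A2) and 1 downregulated (SLC44A4) at 1 d postpartum, or 20% of the 30, against 20.1% of all genes (10.6% upregulated and 9.51% downregulated). The libraries of these days did not overlap in 7 of the 30, or in 27.2% of all genes. SLC50A1 and SLC16A1, upregulated by 2 d prepartum, were not among them, with differences of 0.14 ± 0.22 and 0.26 ± 0.34. In -2vs-6 no SLC gene was called, against 0.0296% of all genes, and DESeq2 and limma-voom called 0. The libraries did not overlap in 9 of the 30 genes (18.1% of all genes). Here 4 of the 30 had an unadjusted p under 0.05, against 1586 of all 13503 genes. Among the 4 were SLC50A1 (0.69 ± 0.22) and SLC16A1 (1.04 ± 0.34), both higher in all 3 sows.

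**Figure D4:**
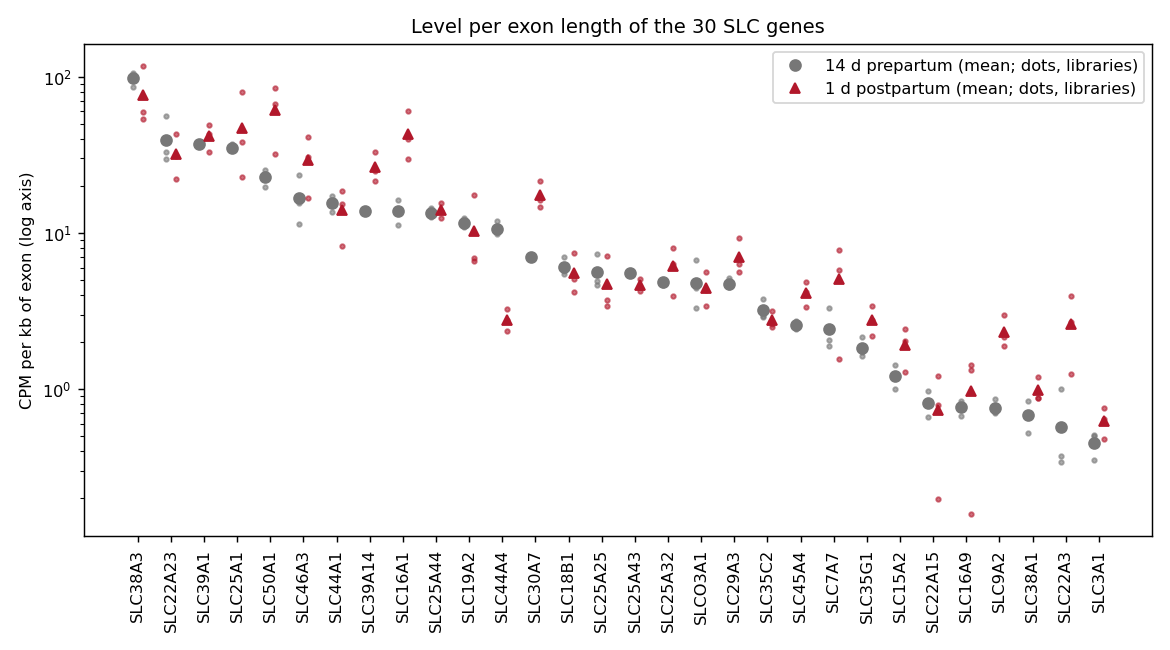
CPM per kb of exon, on a log axis, of the 30 SLC genes at 14 d prepartum (grey circles, mean; grey dots, 3 libraries) and 1 d postpartum (red triangles, mean; red dots, 3 libraries), in the order of their level at 14 d. SLC38A3 is highest on both days, and SLC50A1 and SLC16A1 move up among the others.

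To set genes side by side, levels were scaled by exon length of the Sscrofa10.2 annotation. The comparison rests on those lengths and on counts that may mix reads of overlapping or antisense genes. SLC38A3 was the highest member at every time point, with 97.5 ± 10.7 CPM per kb (SD, n = 3) at 14 d prepartum and 76.5 ± 34.7 at 1 d postpartum. At 14 d it was followed by SLC22A23 (39.5 ± 14.1), SLC39A1 (36.9 ± 0.474), SLC25A1 (35.1 ± 1.51) and SLC50A1 (22.8 ± 2.84 CPM per kb), of which SLC22A23, SLC39A1 and SLC25A1 did not differ beyond their spread. At 1 d postpartum SLC50A1 was second with 61.2 ± 26.6 CPM per kb, followed by SLC25A1 (47.1 ± 29.6), SLC16A1 (43.3 ± 15.3) and SLC39A1 (41.6 ± 8.15), and the spread of these 5 highest genes overlapped. The summed level of the 30 genes was 958 ± 51.0 CPM at 14 d prepartum and 1159 ± 161 CPM at 1 d postpartum with TMM scaling. By library totals alone it was 1152 ± 28.8 and 867 ± 116 CPM, so the direction of the sum depended on the scaling.

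**Figure D5:**
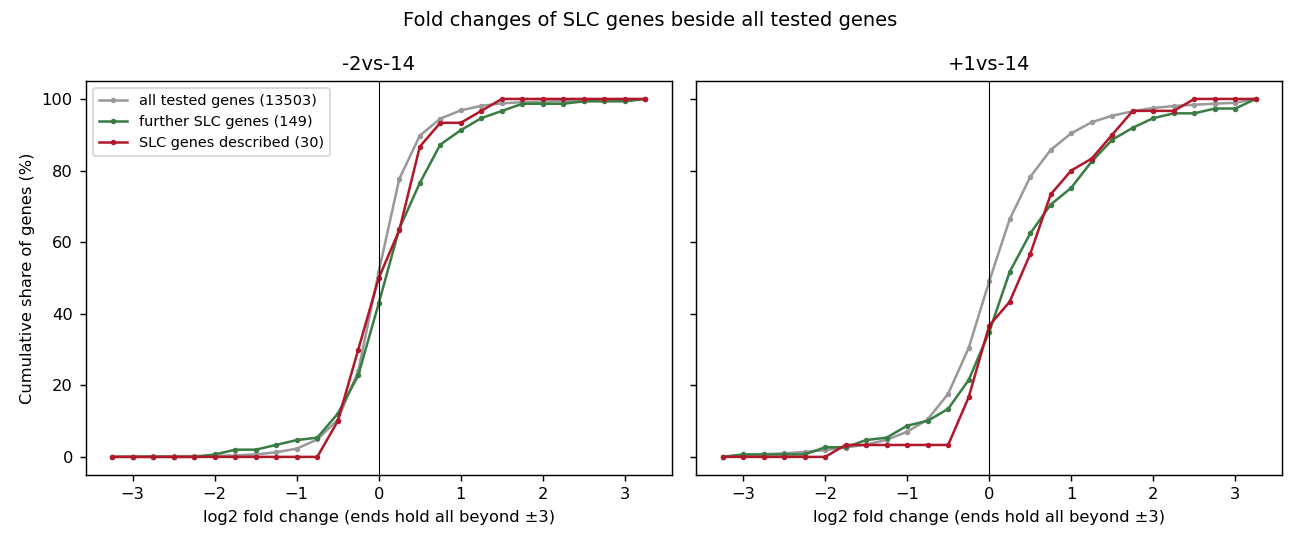
Cumulative share of genes (%) by log2 fold change for the 30 SLC genes (red), 149 further SLC genes (green) and all 13503 tested genes (grey) in -2vs-14 and +1vs-14. In +1vs-14 the red and green curves lie to the right of the grey one over most of the range, with medians of 0.34, 0.25 and 0.01.

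The 149 further SLC genes had 15 upregulated and 6 downregulated in -2vs-14, or 14.1% against 8.68% of all genes. In +1vs-14 they had 46 and 15, or 40.9% against 30.1%, and a median of 0.25. Of 10 further genes of the SLC2, SLC5 and SLC45 families, 1 was upregulated and 4 downregulated in +1vs-14, against 16.3% and 13.8% of all genes. SLC5A1 (SGLT1), the sodium-glucose cotransporter, went from 108, 103 and 138 CPM to 89.0, 13.5 and 25.1 CPM (-1.60 ± 0.47), the facilitative carriers SLC2A8 and SLC2A12 were at -0.72 ± 0.19 and -1.15 ± 0.32 and the iodide carrier SLC5A5 at -2.24 ± 0.33, while SLC5A6, the upregulated member, carries not sugar but biotin and pantothenate (1.69 ± 0.34). Of 7 further monocarboxylate carriers, SLC16A7 (MCT2) was upregulated (1.27 ± 0.23) and SLC16A12 (-2.14 ± 0.39) and SLC16A13 (-1.52 ± 0.23) downregulated.

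Channels, pumps and carriers without an SLC symbol were counted in the same way. Of 42 such genes from the same list, 8 were upregulated and 2 downregulated in -2vs-14 (23.8%, against 8.68% of all genes) and 12 and 5 in +1vs-14 (40.5%, against 30.1%). The 42 were chosen with earlier results of these data known, so these shares do not speak for such genes as a class. AQP9, a channel for water and glycerol, rose from 0.252-0.596 CPM to 4.72-7.51 CPM at 2 d prepartum (3.84 ± 0.38) and 3.27-4.26 CPM postpartum (3.35 ± 0.40). MPC2, a subunit of the mitochondrial pyruvate carrier, was higher in -2vs-14 (1.00 ± 0.21) and not called in +1vs-14 (0.21 ± 0.21). ORAI1, the calcium channel of store-operated entry, rose from 87.2-105 CPM to 220-555 CPM (1.73 ± 0.26), and ABCC1, an export pump, from 3.21-4.78 to 4.94-25.1 CPM (1.97 ± 0.30).

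Enzymes that act on the carried substrates were taken from the same list. Of 23, 4 were upregulated and 1 downregulated in -2vs-14 (21.7%, against 8.68% of all genes) and 10 and 2 in +1vs-14 (52.2%, against 30.1%). The 23 were chosen with earlier results of these data known, so these shares do not speak for such enzymes as a class. Of the 8 that use acetyl-CoA for sterols and fatty acids, which cytosolic citrate supplies, 6 were upregulated in +1vs-14 (among them FDPS 1.84 ± 0.35, SQLE 1.87 ± 0.33 and ACACB 1.95 ± 0.43), while SLC25A1 was not called. Of the 5 of choline and phospholipid metabolism, CHDH, which oxidises choline, rose in both -2vs-14 (1.56 ± 0.30) and +1vs-14 (2.05 ± 0.31), CEPT1, which joins choline to diacylglycerol, rose by 0.91 ± 0.14 in +1vs-14, and CRLS1, the cardiolipin synthase, fell by 0.73 ± 0.10, beside the fall of SLC44A4. Of the 10 enzymes of amino acid metabolism 2 were upregulated (HAL and ALDH18A1) and 1, GATM, the first enzyme of creatine synthesis, downregulated (-1.18 ± 0.19).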

How the data were processed

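Libraries were made with a stranded mRNA kit and sequenced from 1 end. Per the study's methods and the file headers, the authors trimmed adaptors, mapped the reads to the pig genome Sscrofa10.2 by STAR 2.5.1b and counted them per gene with featureCounts of Subread 1.5.0. The deposited values are raw counts with the exon length of each gene, and the strand setting of the counting is not given in the sources used here, so reads from overlapping or antisense genes may be mixed. The sow of a library was taken from the study's sequencing summary, matched within a time point by the exact total count. Total counts ran from 10782343 to 19952918 per library, which limits the precision of genes of a few CPM. Within each time point, any 2 libraries differed in the counts of 16072 to 17093 genes. These differences were not compared with sampling noise.

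From the counts, genes with at least 1 CPM in at least 3 of 15 libraries were fitted with edgeR 4.0.16 in R 4.3.3 (TMM scaling, glmQLFit and glmQLFTest) with time and sow as terms, since the same 3 sows were biopsied at each time point and the study modelled animal as a random effect. Deviations from the time means correlated at 0.396 on average between libraries of the same sow (30 pairs, 0.103 to 0.627) and at -0.198 between sows. Each time point was centred on its own 3 libraries, so the negative value largely follows from the first and adds nothing to it. With sow as a term, the p-values rest on the spread left after time and sow in these 3 animals, not on the differences between them. Standard errors are the log2 fold change over the root of F. The fit was tested on simulated data: in +1vs-14 it recovered 87 of 100 genes changed 2-fold and 100 of 100 changed 4-fold (genes with a mean of at least 50 counts) and called 3 of 13303 unchanged ones. The simulated counts had no sow effect and no wider spread after parturition, so these rates need not hold for the real libraries.

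Members followed a rule on names, and they, the other lists, the markers and the tests were chosen with earlier results of these data known. Each member called in -2vs-14, +1vs-14, -2vs-6 or +1vs-2 is given in all libraries and the others by ranges. Genes outside the 30 were grouped by SLC family number once the name table was at hand, and those named among them were chosen after their values were seen. The study's own fold changes and p-values, held by the same list as the names, were not used. Alternatives were limma 3.58.1 (voom, sow random), DESeq2 1.42.0, other scalings and filters, single comparisons, thinning to the smallest library, RNA integrity as a covariate, and leaving out each library.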

Additional observations from a re-analysis of the deposited data

How the results depend on the processing

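The 3 sows carry these results, and depth limits genes of a few CPM such as SLC3A1 and SLC38A1. Over 11 other settings and 15 fits without 1 library each, the log2 fold changes of the 8 called genes in +1vs-14 kept their direction except SLC35G1, which was -0.038 without TMM. In +1vs-14, 10 of the 30 changed sign without TMM. Of these SLC35G1 was called with TMM and SLC25A44, at -0.63, without it. SLC39A14 in both +1vs-14 and +1vs-2, and SLC9A2 in +1vs-2 (0.64), lost their calls without TMM. Without TMM all genes had a median of -0.42 for the prepartum comparison -2vs-14 and -0.65 for the postpartum comparison +1vs-14. Against 14 d the SLC median was then -0.10 (10 d), -0.11 (6 d), -0.39 (2 d) and -0.33 (postpartum), and it was -0.23 for -2vs-6 and 0.035 for +1vs-2. The SLC genes called without TMM were 2 upregulated and 5 downregulated in -2vs-14. Their number was 5 and 8 for +1vs-14 and 2 and 3 for +1vs-2.

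Without sow as a replicate block, 1 SLC gene was upregulated in -2vs-14, and in the other transport genes 3 were upregulated and 0 downregulated and among the enzymes 1 upregulated there. The block moved no other of these counts by over 1.5 times. With the 6 libraries of a comparison alone, 3 SLC genes were upregulated in -6vs-14, 1 was downregulated in -2vs-14, 2 were upregulated in -2vs-6, and in +1vs-2 1 was upregulated and 0 downregulated. With RNA integrity as a covariate, 0 SLC genes were upregulated in -2vs-14, 1 upregulated and 0 downregulated in +1vs-14 and 3 upregulated in +1vs-2, with medians against 14 d of 0.073 (10 d) and 0.084 (2 d). DESeq2 called 1 SLC gene and 2 enzymes downregulated in -2vs-14. With limma-voom 0 other transport genes were downregulated in -2vs-14 and the SLC median was 0.18 in +1vs-14. The cause was not tested, except that the fits on 6 libraries use fewer samples.

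Without 1 library each, SLC genes upregulated and downregulated ranged, against 14 d, from 0 to 0 (10 d and 6 d), from 1 to 4 and 0 to 4 (2 d) and from 6 to 12 and 1 to 4 (postpartum). They were 0 throughout for -2vs-6 and 3 to 11 and 1 to 4 for +1vs-2. Their median against 14 d ranged from -0.043 to 0.018 (10 d), from 0.026 to 0.12 (6 d), from -0.019 to 0.11 (2 d) and from 0.26 to 0.40 (postpartum), from -0.092 to 0.083 for -2vs-6 and from 0.16 to 0.37 for +1vs-2. The highest counts came without the postpartum library of sow 1, where more of all tested genes were called too. The other transport genes ranged from 1 to 14 up and 0 to 4 down before and 12 to 13 and 3 to 6 after parturition, and the enzymes from 0 to 8 and 1 to 2 and from 8 to 12 and 2 to 4. In +1vs-2 the call of SLC22A3 was lost without sow 3 at 2 d prepartum or sow 2 postpartum, and that of SLC9A2 without sow 3 on either day.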

Other observations

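Single SLC genes outside the 30 had larger changes or higher levels than the members. SLC34A2, the epithelial sodium-phosphate cotransporter, was at 437, 388 and 391 CPM in sows 1, 2 and 3 at 14 d prepartum, 1402, 1748 and 976 CPM at 2 d prepartum and 1686, 1034 and 1144 CPM at 1 d postpartum, a log2 difference of 1.74 ± 0.18 before and 1.66 ± 0.18 after parturition, each against 14 d. SLC28A3, a concentrative nucleoside carrier, went from 91.6, 102 and 76.1 CPM to 301, 351 and 232 CPM at 1 d postpartum (1.70 ± 0.12 against 14 d). SLC47A2, an extruder of organic cations, went from 0.825-0.964 CPM to 9.70-15.4 CPM (3.95 ± 0.44), beside the rise of SLC22A3. SLC15A1, the intestinal-type peptide carrier PEPT1, was higher at 2 d prepartum and not called after parturition, with 49.0-68.8 CPM at 14 d, 93.3-154 CPM at 2 d prepartum (1.20 ± 0.21) and 38.98-59.6 CPM postpartum (-0.12 ± 0.21).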
